A study of Homo sapiens with 4 samples.

Results

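Among the 58735 genes of the deposited table, 38 encode parts of the human kinetochore or of the spindle checkpoint, and all 38 were found once each by gene symbol on 19 chromosomes. Their rows were picked by gene symbol. Expression was measured by RNA sequencing in HFL1, an established line of fibroblasts from human fetal lung, in 2 libraries labelled WT and 2 labelled KO, so every comparison has n = 2 per group. The series text names calumenin, which binds calcium inside the secretory pathway and is encoded by CALU, as what was knocked out or knocked down. No other genotype, treatment or time is given for either group. The sources used here do not say whether the KO cells are a single clone, how the gene was disrupted, or whether replicate libraries stem from separate cultures. The p-values therefore rest on a spread that may be purely technical.

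The kinetochore is the protein assembly built on each centromere that holds chromosomes to spindle microtubules. Nucleosomes with the histone variant CENP-A mark its place, an inner network of CENP proteins binds them, and an outer layer formed by KNL1, the MIS12 complex and the NDC80 complex grips the microtubules. Kinetochores without microtubules recruit the checkpoint proteins of the BUB and MAD families, which hold back anaphase until every chromosome is attached. Many of these genes are transcribed mainly in the later part of the cell cycle and are low in cells that have left it, as in senescence, while others have further roles or steadier transcription.

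Whole reads recovered from the FPKM values (fragments scaled by gene length and a size factor of each library) numbered 16173899 to 17715774 per library. CALU stood at 87.7 and 81.8 FPKM in WT and at 6.59 and 5.95 FPKM in KO, and fell by 3.56 on the log2 scale (limma adjusted p = 0.00154), which goes with the labels. Of 10 markers of fibroblasts, 8 stayed below 1 FPKM in every library, COL1A2 and POSTN had 0 reads, and the 10 summed to 2.24 to 2.53 FPKM in WT and 4.78 to 5.40 FPKM in KO, so the labelled cell type is not borne out by these markers. The 10 epithelial markers summed to 1041 to 1180 FPKM in WT and 1922 to 2295 FPKM in KO, with KRT8, KRT18 and KRT7 the highest. Most of each sum came from these 3 keratins. Among the 10, 2 stayed below 1 FPKM in every library, ESRP1 and GRHL2, the latter at 0 reads. Endothelial markers summed to 0.937 FPKM or less in every library, and leukocyte markers to 17.7 to 20.2 FPKM in WT and 5.89 to 6.55 FPKM in KO, nearly all from CD14, with CD3E and TYROBP at 0 reads. Of the 10 epithelial markers, 4 rose (KRT8, KRT18, KRT19 and CDH1) and CLDN4 fell in KO, with the kinetochore genes. Of the 10 fibroblast markers 2 were tested, and 1 of these, COL1A1, rose. Both KO libraries lay above both WT libraries for 3 of the 10 fibroblast markers, against 34.4% of all genes tested. They lay below for 3 others, against 31.3% of all genes tested. These were LUM, PDGFRA and PDGFRB, all under 1 FPKM in every library. The genes outside the 3 highest were chosen after their values were seen. The calls of KRT8 and KRT18 were lost without either WT replicate (limma adjusted p = 0.0594 to 0.141), and that of KRT8 also without KO replicate 2 (adjusted p = 0.0715). The part of these markers in the results was not tested.

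Most kinetochore and checkpoint genes were higher in the KO libraries. In 35 of the 38, both KO libraries lay above both WT libraries, against 34.4% of all genes tested, and in 1, MIS12, both lay below, against 31.3%. Genes with at least 1 FPKM in at least 2 libraries were tested, which took in 37 members and left out CENPP. Of the 37, 31 rose, 0 fell and 6 did not pass the threshold (limma on log2(FPKM + 1), Benjamini-Hochberg adjusted p under 0.05 over 14100 genes), where 12.1% of all genes tested rose and 11.1% fell. The median log2 change of the 37 was 1.42, and that of all genes tested was 0.03. Among these 37, 6 (CENPC, CENPI, NDC80, SPC24, KNL1 and CENPE) were below 1 FPKM in both WT libraries and entered only through the KO libraries, so they had to be higher there. Of the 28 members at 1 FPKM or more in both WT libraries, 22 rose, and the share of all genes under that same limit was not computed. Mean FPKM was at least 2-fold higher in 29 of the 38, against 9.13% of all genes tested. It was at least 4-fold higher in 15, a fold at which the share of all genes was not computed. Without WT replicate 1, 20 of the 37 rose, against 3.58% of all genes tested. With no filter on low values, which brings the genes tested to 32306, 7 of the 38 rose (BUB1, BUB1B, CENPA, CENPK, HJURP, MAD2L1 and NUF2), against 0.566% of all genes tested. In bulk RNA, a larger share of dividing cells and more RNA per dividing cell cannot be told apart.

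**Figure D1:**
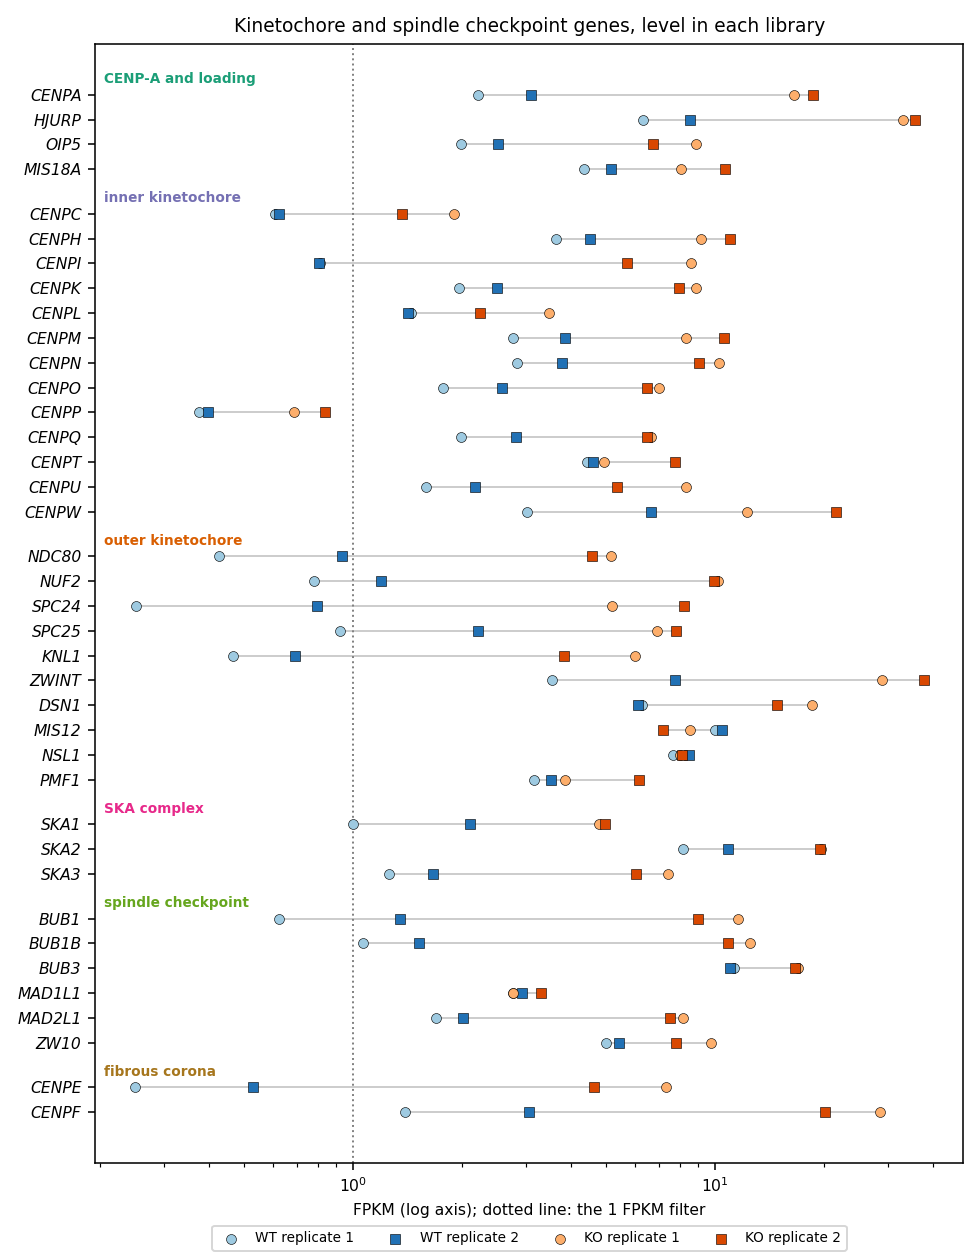
Level of each of the 38 genes in every library, in FPKM on a log axis, ordered by role. Circles are replicate 1 and squares replicate 2 of WT (blue) and KO (orange), and the dotted line is the 1 FPKM filter. The KO symbols lie to the right of the WT symbols for 35 genes, MIS12 shows the reverse, and NSL1 and MAD1L1 overlap.

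The 3 tested members with the largest positive change on the log2(FPKM + 1) scale were CENPF, BUB1 and NUF2, and the 2 with the smallest change in size were NSL1 and MAD1L1. CENPF, a large coiled-coil protein of the outermost kinetochore layer, stood at 1.39 and 3.07 FPKM in WT and 28.5 and 20.1 FPKM in KO, and rose by 3.0 on the log2(FPKM + 1) scale (SE 0.30, limma adjusted p = 0.00457). NSL1, a subunit of the MIS12 complex, stood at 7.67 and 8.49 FPKM in WT and 8.01 and 8.12 FPKM in KO, with overlapping groups and a log2 change of -0.0012 (95% interval -0.33 to 0.32). By ratio of mean FPKM the order differs, with CENPE (15.4-fold) and SPC24 (12.8-fold) above CENPF (10.9-fold), BUB1 (10.4-fold) and NUF2 (10.2-fold). The promoters of CENPF, BUB1, NUF2, NSL1 and MAD1L1 are shown to set members with a large change on the tested scale beside members with a small one. Each runs 5′ to 3′ on the gene's strand, from 250 bases before to 50 bases after the start of transcription in RefSeq (build GRCh38.p14), and capitals mark matches to the motifs described after them.
CENPF, chr1:214602945-214603244, plus strand: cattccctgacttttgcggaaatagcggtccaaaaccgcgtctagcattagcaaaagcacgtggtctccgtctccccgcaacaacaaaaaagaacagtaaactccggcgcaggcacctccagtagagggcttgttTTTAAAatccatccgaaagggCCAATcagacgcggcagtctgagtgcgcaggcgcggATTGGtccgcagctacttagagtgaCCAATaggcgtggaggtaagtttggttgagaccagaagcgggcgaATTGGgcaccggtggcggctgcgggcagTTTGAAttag
BUB1, chr2:110678014-110678313, minus strand: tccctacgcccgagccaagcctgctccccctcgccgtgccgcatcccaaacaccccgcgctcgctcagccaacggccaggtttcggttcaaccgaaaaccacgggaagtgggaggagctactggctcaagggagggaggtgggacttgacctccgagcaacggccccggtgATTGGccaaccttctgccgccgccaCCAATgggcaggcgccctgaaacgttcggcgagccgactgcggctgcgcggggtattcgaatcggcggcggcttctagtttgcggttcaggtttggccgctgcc
NUF2, chr1:163321704-163322003, plus strand: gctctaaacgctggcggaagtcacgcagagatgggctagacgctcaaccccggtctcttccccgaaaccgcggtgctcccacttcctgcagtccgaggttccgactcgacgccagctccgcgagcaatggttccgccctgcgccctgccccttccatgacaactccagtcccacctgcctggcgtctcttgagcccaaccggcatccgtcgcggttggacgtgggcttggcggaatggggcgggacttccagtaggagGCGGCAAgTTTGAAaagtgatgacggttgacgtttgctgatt
NSL1, chr1:212791728-212792027, minus strand: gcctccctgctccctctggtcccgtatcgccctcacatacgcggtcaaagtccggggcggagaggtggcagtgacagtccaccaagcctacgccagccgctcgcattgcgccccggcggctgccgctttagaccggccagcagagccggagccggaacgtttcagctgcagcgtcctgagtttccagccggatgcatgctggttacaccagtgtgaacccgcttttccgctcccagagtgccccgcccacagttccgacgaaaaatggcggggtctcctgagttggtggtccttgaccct
MAD1L1, chr7:2232896-2233195, minus strand: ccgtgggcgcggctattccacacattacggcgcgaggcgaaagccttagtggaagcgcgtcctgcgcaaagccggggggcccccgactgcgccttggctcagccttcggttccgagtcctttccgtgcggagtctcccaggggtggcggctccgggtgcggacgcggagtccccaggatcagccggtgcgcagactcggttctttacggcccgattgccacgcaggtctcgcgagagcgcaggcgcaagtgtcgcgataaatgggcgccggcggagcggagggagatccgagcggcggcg

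Short motifs known from promoters of cell cycle genes were searched on both strands. They were the cell cycle genes homology region, or CHR (TTTGAA or TTTAAA), which is bound by the MuvB-containing complexes that repress mitotic genes in resting cells and activate them in dividing cells, the CCAAT box (CCAAT), bound by NF-Y, and an E2F core (TTCCCGC or TTCGCGC or TTGCCGC or TTGGCGC). In ZW10 and in PMF1 a match to the CCAAT box shared letters with an E2F match. The CENPF window held 2 CHR and 4 CCAAT matches, the BUB1 window 2 CCAAT matches, and the NUF2 window 1 CHR and 1 E2F match, while the windows of NSL1 and MAD1L1 held 0 of the 3 motifs. Promoter sequences were matched for 32 of the 38 members, and CENPH, CENPL, CENPM, MIS18A, KNL1 and BUB3 had none in the table. A CHR match was present in 16 of 32 member promoters, against 16.4% of the promoters of genes tested and 24% of all 35116 promoters in the table. The CCAAT box was present in 19 of 32, against 34.3% and 34.6%, and an E2F core in 14 of 32, against 19.4% and 13%. All 3 motifs together occurred in 7 of 32 member promoters, against 1.12% of the promoters of genes tested. The median GC content, on which the frequency of such letters depends, was 61.5% in the member promoters and 65% in those of genes tested. The 7 with all 3 were the promoters of CENPA, CENPN, HJURP, MAD2L1, SPC25, ZW10 and ZWINT.

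The 16 member promoters with a CHR match all belonged to genes that rose, which were 26 of the 32 members matched. The other 6, CENPP, CENPT, MAD1L1, MIS12, NSL1 and PMF1, held 0 CHR matches, and MIS12 and PMF1 held both CCAAT and E2F matches. Of the 26, CENPI and DSN1 held 0 of the 3 motifs although both rose. CENPC, CENPE and NDC80, which held CHR matches, and CENPI and SPC24, which did not, were below 1 FPKM in both WT libraries. These genes entered the test only through the KO libraries and had to be higher there. Of 21 CHR matches, 16 lay between 100 bases before and 50 bases after the start, and the median position of the 21 was -23 bases relative to it. A match is a description of these letters, and no test was made of its relation to the change in expression.

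**Figure D2:**
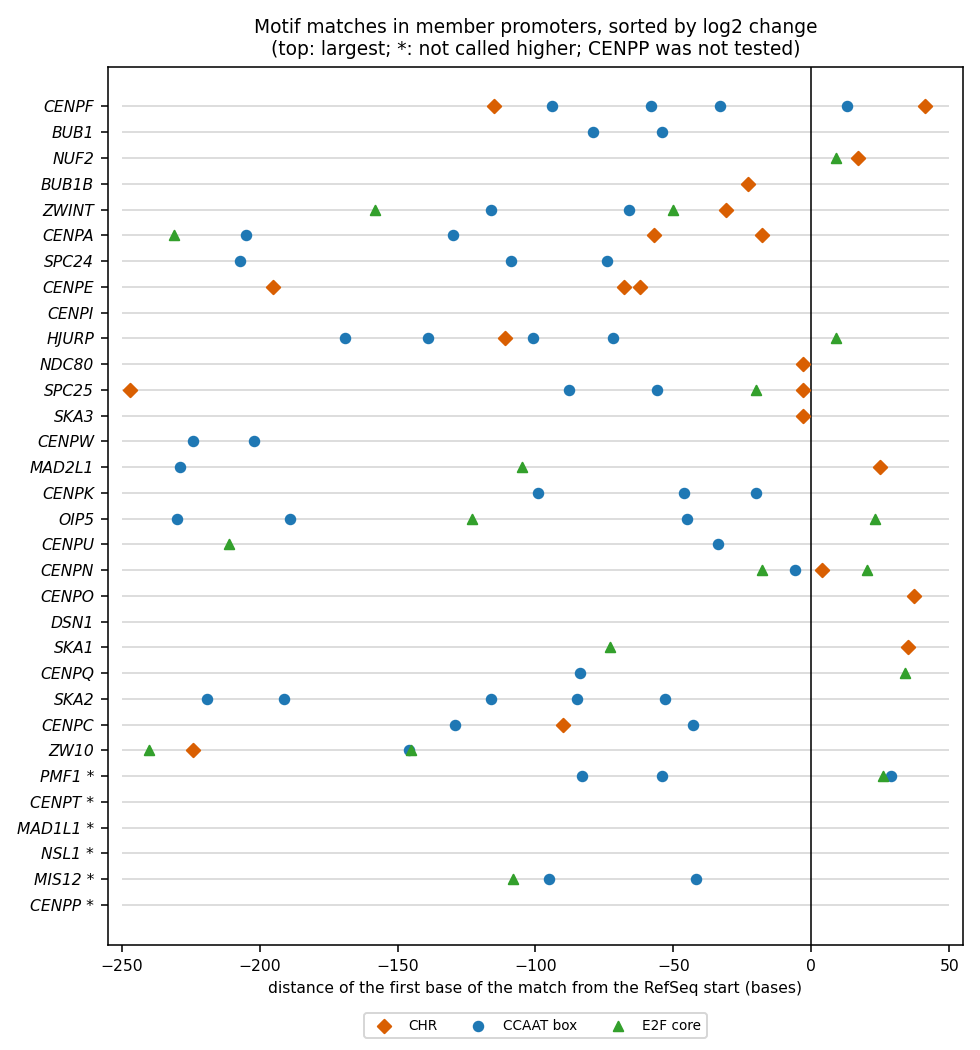
Position of each CHR (orange diamonds), CCAAT (blue circles) and E2F core (green triangles) match in the 32 member promoters, in bases from the RefSeq start, with genes sorted from the largest log2 change at the top. The 16 promoters with a CHR match all lie above the 6 starred genes, which were not called higher and hold none. Among the 16, CENPC, CENPE and NDC80 were tested only through the KO libraries.

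The 4 genes of the centromeric histone and its loading all rose. CENPA encodes the histone H3 variant that marks centromeres and lies on the plus strand of chromosome 2 (GRCh38, 26764289 to 26801067, ENSG00000115163). It measured 2.21 and 3.11 FPKM in WT and 16.5 and 18.7 FPKM in KO, a 6.63-fold higher mean with a log2 value of 2.36 (SE 0.17, limma adjusted p = 0.00312). HJURP, the chaperone that carries CENP-A to the centromere, was the most abundant of the 4, at 6.34 and 8.56 FPKM in WT and 33.01 and 35.8 FPKM in KO, 4.62-fold higher. OIP5 and MIS18A encode subunits of the Mis18 complex, which primes centromeres for new CENP-A. OIP5 stood at 1.99 and 2.52 FPKM in WT and 8.87 and 6.76 FPKM in KO, and MIS18A at 4.36 and 5.17 FPKM in WT and 8.05 and 10.7 FPKM in KO, the smallest change of the 4 (log2 0.84). The call of MIS18A was lost without WT replicate 1, WT replicate 2 or KO replicate 2 (limma adjusted p = 0.156, 0.0817 and 0.0589). The exons of CENPA share 138 bases with SLC35F6 on the same strand, which held 1976 to 2431 reads per library, and those of OIP5 share 470 bases with the antisense gene OIP5-AS1, which held 2909 to 4430 reads. The sources used here do not say whether counting used strand, so the values of both genes are uncertain where reads could be shared. The same holds for CENPN, CENPO, CENPT, CENPU and MIS12, whose exons share bases with an expressed gene on the other strand.

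Of the 13 genes of the inner kinetochore, 10 rose, CENPL and CENPT did not pass, and CENPP was not tested. Both KO libraries lay above both WT libraries for all 13. The largest change was that of CENPI, a subunit beside CENPH and CENPK, which stood at 0.811 and 0.805 FPKM in WT and 8.58 and 5.71 FPKM in KO (log2 2.15, SE 0.20, limma adjusted p = 0.00433). CENPI was tested only through the KO libraries, so the filter fixed the direction of its change. Its partners CENPH and CENPK rose 2.48-fold and 3.76-fold, CENPH from 3.64 and 4.51 FPKM to 9.16 and 11.01 FPKM and CENPK from 1.97 and 2.50 FPKM to 8.87 and 7.95 FPKM. CENPM, the other subunit of that group, rose from 2.77 and 3.84 FPKM to 8.32 and 10.6 FPKM. The subunit that reads the CENP-A nucleosome together with CENPC, CENPN, rose from 2.84 and 3.78 FPKM to 10.3 and 9.05 FPKM (log2 1.31). Its dimer partner CENPL stood at 1.45 and 1.42 FPKM in WT and 3.49 and 2.25 FPKM in KO (log2 0.65, 95% interval 0.16 to 1.14, limma adjusted p = 0.0672). CENPL passed without KO replicate 2 (limma adjusted p = 0.037), and with voom weights on recovered reads (adjusted p = 0.0232).

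CENPO, CENPQ and CENPU encode subunits of another block of the inner network, to which the product of CENPP also belongs. CENPO rose from 1.78 and 2.59 FPKM to 6.99 and 6.50 FPKM, CENPQ from 1.99 and 2.82 FPKM to 6.66 and 6.48 FPKM and CENPU from 1.60 and 2.17 FPKM to 8.31 and 5.35 FPKM, folds of 3.09, 2.73 and 3.63. The groups did not overlap for any of these 3 genes. CENPP stayed below the filter at 0.375 and 0.399 FPKM in WT and 0.688 and 0.835 FPKM in KO, on 64 to 134 reads per library, and shares 3719 exonic bases with IPPK on the other strand. CENPC, the scaffold that links CENP-A nucleosomes to the MIS12 complex, was the lowest tested member of the network in KO. It too was tested only through the KO libraries. It stood at 0.611 and 0.623 FPKM in WT and 1.90 and 1.37 FPKM in KO, a 2.65-fold higher mean close to the threshold (limma adjusted p = 0.0448). Its call was lost without any single library (adjusted p = 0.0547 to 0.155).

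CENPT and CENPW form the histone-fold pair that offers a second route from centromeric DNA to the NDC80 complex. CENPW stood at 3.03 and 6.68 FPKM in WT and 12.3 and 21.6 FPKM in KO, and the replicates within each group differed more than for most members (log2 1.64, SE 0.38, limma adjusted p = 0.034). The mean of CENPW was 3.49-fold higher, or 5.59-fold without WT replicate 2, and its call was lost without WT replicate 1 or KO replicate 2 (adjusted p = 0.104 and 0.0903). CENPT stood at 4.42 and 4.59 FPKM in WT and 4.95 and 7.76 FPKM in KO (log2 0.39, 95% interval -0.13 to 0.91, limma adjusted p = 0.227), with KO replicate 1 close to the WT libraries. CENPT passed without KO replicate 1 (adjusted p = 0.049). Without WT replicate 1 the calls of CENPH, CENPM, CENPQ and CENPU were lost as well (adjusted p = 0.054 to 0.0648).

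The NDC80 complex, the main microtubule gripper of the kinetochore, has 4 subunits, and all 4 genes rose from low levels. NDC80 itself, on the plus strand of chromosome 18 (GRCh38, 2571511 to 2616635, ENSG00000080986), stood at 0.426 and 0.932 FPKM in WT and 5.17 and 4.58 FPKM in KO, a difference of 1.82 on the log2 scale (SE 0.20, limma adjusted p = 0.00534). NUF2, its dimer partner, stood at 0.782 and 1.20 FPKM in WT and 10.2 and 9.93 FPKM in KO, 10.2-fold higher (log2 2.48, adjusted p = 0.00253). SPC24 and SPC25 form the end of the complex that faces the inner kinetochore. SPC24 held 13 and 37 reads in WT and 258 and 383 in KO, or 0.251 and 0.795 FPKM and 5.19 and 8.23 FPKM. SPC25 stood at 0.923 and 2.22 FPKM in WT and 6.92 and 7.82 FPKM in KO. The KO libraries were above the WT libraries for each of the 4, and WT replicate 1 was the lowest library for each. For NDC80 and SPC24, tested only through the KO libraries, the filter fixed the order of the groups. The folds of NDC80, SPC24 and SPC25 were 7.18, 12.8 and 4.69, but 11.4, 26.8 and 7.99 without WT replicate 2, and that of SPC24 was 8.44 without WT replicate 1.

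KNL1, the scaffold on which BUB proteins dock, stood at 0.465 and 0.690 FPKM in WT and 6.03 and 3.82 FPKM in KO, 8.53-fold higher (log2 1.89, SE 0.22, limma adjusted p = 0.00637). As KNL1 was tested only through the KO libraries, it had to be higher there. ZWINT, which binds KNL1, reached the highest level of any member in a library, with 3.55 and 7.77 FPKM in WT and 28.9 and 37.8 FPKM in KO. Its mean was 5.88-fold higher in KO, or 9.39-fold without WT replicate 2 (log2 2.43, adjusted p = 0.00891).

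The MIS12 complex joins the inner and outer layers through 4 subunits, and its genes did not move together. DSN1 rose from 6.30 and 6.15 FPKM to 18.6 and 14.8 FPKM, 2.69-fold (log2 1.29, SE 0.16, limma adjusted p = 0.00655). MIS12 was the only member with a lower level in both KO libraries, at 10.03 and 10.5 FPKM in WT and 8.54 and 7.21 FPKM in KO (log2 -0.35, 95% interval -0.70 to 0.006, adjusted p = 0.133), and no alternative tried brought it past the threshold. NSL1 overlapped between groups, as given above. PMF1 stood at 3.17 and 3.53 FPKM in WT and 3.85 and 6.18 FPKM in KO (log2 0.44, 95% interval -0.10 to 0.98, adjusted p = 0.192), with KO replicate 1 near the WT level, and passed without KO replicate 1 (adjusted p = 0.0489). PMF1 shares 587 exonic bases with the read-through gene PMF1-BGLAP, which held 1 read in all libraries together.

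The 3 genes of the SKA complex, which helps NDC80 to track shrinking microtubule ends, rose. SKA3 stood at 1.26 and 1.66 FPKM in WT and 7.42 and 6.07 FPKM in KO, 4.62-fold higher (log2 1.65, SE 0.17, limma adjusted p = 0.00461). SKA1 stood at 1.003 and 2.11 FPKM in WT and 4.78 and 4.99 FPKM in KO, 3.14-fold higher, or 4.87-fold without WT replicate 2. SKA2, the most abundant of the 3, rose from 8.16 and 10.9 FPKM to 19.7 and 19.5 FPKM, 2.06-fold. The call of SKA1 was lost without WT replicate 1, KO replicate 1 or KO replicate 2 (adjusted p = 0.0686, 0.0568 and 0.0566), and that of SKA2 without WT replicate 1 (adjusted p = 0.11).

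Of the 6 checkpoint genes, 5 rose and MAD1L1 did not pass, and the sizes fell far apart. BUB1, the kinase that recruits the other checkpoint proteins to KNL1, lies on the minus strand of chromosome 2 (GRCh38, 110637698 to 110678114, ENSG00000169679). It stood at 0.627 and 1.35 FPKM in WT and 11.6 and 8.97 FPKM in KO, 10.4-fold higher, or 16.4-fold without WT replicate 2 (log2 2.52, SE 0.23, limma adjusted p = 0.00409). BUB1B, which encodes the BubR1 subunit of the mitotic checkpoint complex, stood at 1.06 and 1.53 FPKM in WT and 12.5 and 10.9 FPKM in KO (log2 2.47, adjusted p = 0.00286). MAD2L1, which encodes the MAD2 protein that captures the anaphase activator CDC20, stood at 1.70 and 2.02 FPKM in WT and 8.18 and 7.53 FPKM in KO, 4.23-fold higher (log2 1.63, adjusted p = 0.00389). These 3 genes kept their calls without each single library.

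BUB3, the propeller protein that binds BUB1 and BubR1, was the most abundant checkpoint gene in WT and rose far less. It stood at 11.3 and 11.02 FPKM in WT and 17.01 and 16.7 FPKM in KO, 1.51-fold higher (log2 0.55, SE 0.13, limma adjusted p = 0.0319), and its call was lost without any single library (adjusted p = 0.0561 to 0.224). ZW10, part of the complex that brings dynein and MAD proteins to kinetochores and that also acts in membrane traffic, stood at 5.0 and 5.44 FPKM in WT and 9.75 and 7.83 FPKM in KO (log2 0.65, adjusted p = 0.0353). Its call was lost without WT replicate 1, WT replicate 2 or KO replicate 1 (adjusted p = 0.217, 0.147 and 0.0878). MAD1L1, which encodes the MAD1 platform for MAD2, stood at 2.77 and 2.93 FPKM in WT and 2.77 and 3.30 FPKM in KO, with overlapping groups (log2 0.07, 95% interval -0.29 to 0.43, adjusted p = 0.772).

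CENPE, the kinesin that moves chromosomes along microtubules, and CENPF are among the proteins of the fibrous corona, and both genes rose. CENPE stood at 0.249 and 0.530 FPKM in WT and 7.34 and 4.63 FPKM in KO, 15.4-fold higher, or 24-fold without WT replicate 2 (log2 2.31, SE 0.24, limma adjusted p = 0.0048). The direction for CENPE was fixed by the filter, which it passed only through the KO libraries. CENPF, on the plus strand of chromosome 1 (GRCh38, 214603195 to 214664588, ENSG00000117724), was 10.9-fold higher, or 17.5-fold without WT replicate 2. For both genes KO replicate 1 was above KO replicate 2, and the WT libraries were the lower pair.

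**Figure D3:**
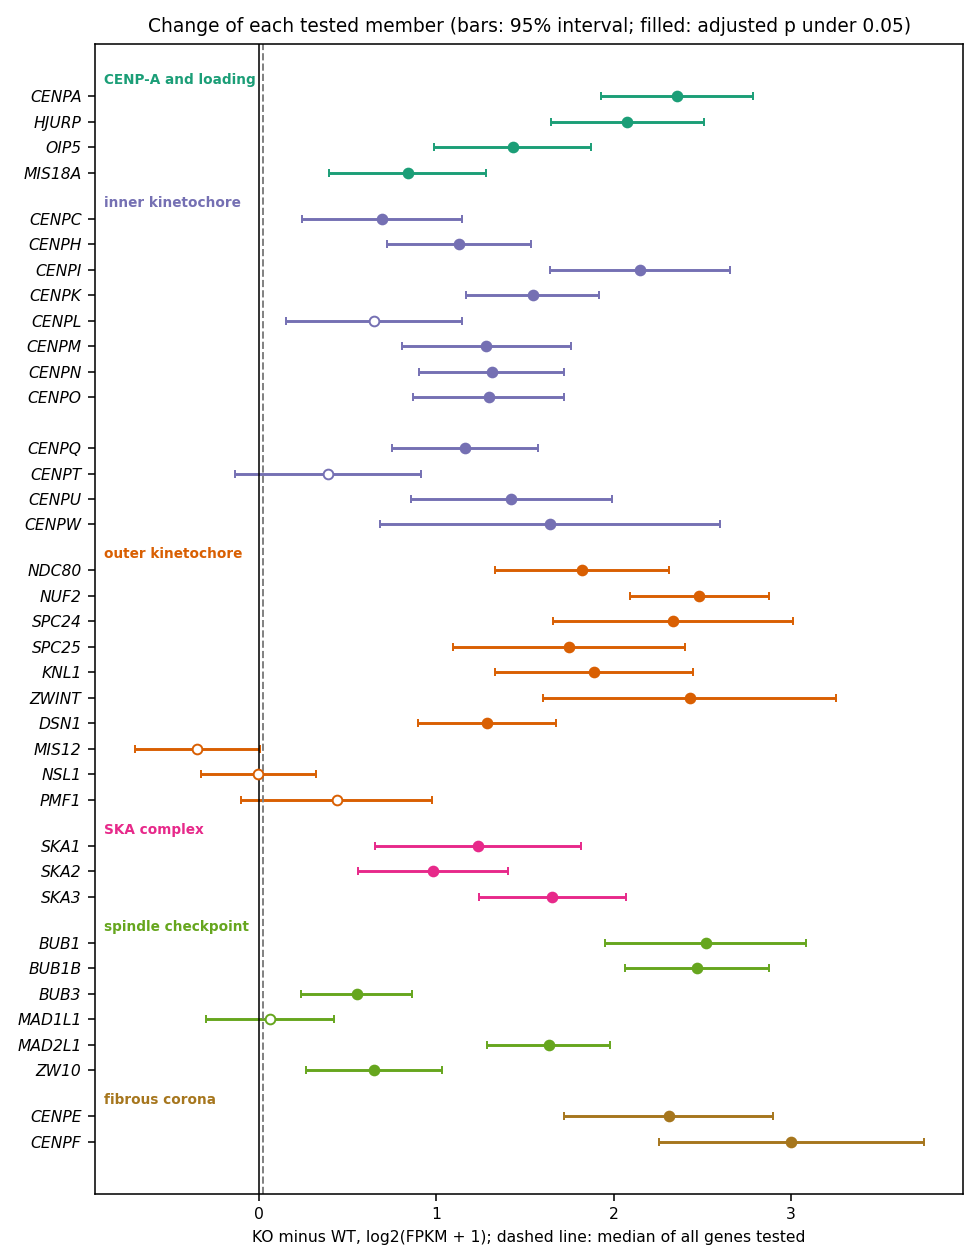
Change of the 37 tested members between groups, KO minus WT on the log2(FPKM + 1) scale, ordered by role. Points are limma estimates, bars their 95% intervals and filled points the 31 that rose; the dashed line is the median of all genes tested, 0.03. The open points are CENPL, CENPT, MIS12, NSL1, PMF1 and MAD1L1.

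The replicates of the WT group differed in these genes. WT replicate 2 was above WT replicate 1 in 34 of the 38 members, where 45.3% of all genes tested were higher in replicate 2. The median log2 ratio of replicate 2 to replicate 1 was 0.29 in WT for the 37 tested members and -0.03 for all genes tested. In KO, replicate 2 was above replicate 1 in 15 of the 38, with a median log2 ratio of -0.09 against -0.01 for all genes tested. The proliferation marker MKI67 also differed within WT, at 1.97 and 4.45 FPKM, and the mitochondrial share of reads was 9.66% and 12.7% in WT and 9.34% and 9.71% in KO; their part in the difference between the WT libraries was not tested. The change between groups was larger in size than the WT replicate difference for 36 of the 37 tested members, the exception being NSL1. It was larger than the KO replicate difference for 33 of the 37, the exceptions being CENPT, NSL1, PMF1 and MAD1L1. The same counts over all genes tested were not made. For all genes tested the quartiles were -0.30 to 0.36 for the change between groups. They were -0.16 to 0.14 between the WT replicates and -0.22 to 0.21 between the KO replicates. The 37 include the 6 members that entered the test only through the KO libraries. The fold moved by over 1.5 times without WT replicate 2 in 9 members, namely CENPW, NDC80, SPC24, SPC25, ZWINT, SKA1, BUB1, CENPE and CENPF.

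**Figure D4:**
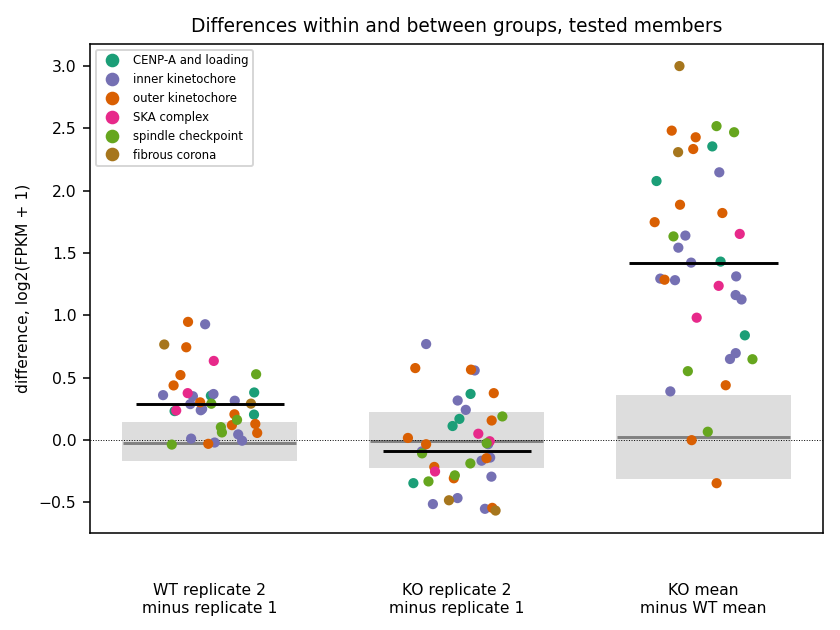
Differences on the log2(FPKM + 1) scale for the 37 tested members, between the WT replicates, between the KO replicates and between the group means, each point a gene colored by role. Black lines are medians of the members (0.29, -0.09 and 1.42), and grey boxes and lines the quartiles and medians of all genes tested.

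Because FPKM is given per length, values of different subunits can be set side by side within a library. The length is a single annotated value per gene, such as 5748 bases for MAD2L1 and 7230 bases for MAD1L1. Whether it equals that of the transcripts expressed was not tested. The side of 1 on which a ratio lies depends on these lengths, while its relative change between libraries does not. These ratios are given as a description and were not tested. In the MIS12 complex, the ratio of MIS12 to DSN1 levels was 1.59 and 1.70 in WT and 0.459 and 0.486 in KO, and that of NSL1 to DSN1 was 1.22 and 1.38 in WT and 0.431 and 0.547 in KO. In FPKM, DSN1 was therefore below MIS12 and NSL1 in WT and above both in KO. The ratio of PMF1 to DSN1 was 0.504 and 0.575 in WT and 0.207 and 0.416 in KO.

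In the checkpoint, BUB3 exceeded BUB1 by 18.1 and 8.19 times in WT and by 1.47 and 1.86 times in KO. The ratio of MAD1L1 to MAD2L1 was 1.63 and 1.45 in WT and 0.339 and 0.438 in KO. The gene with the higher FPKM, given the annotated lengths, thus changed from MAD1L1 to MAD2L1. SKA2 exceeded SKA3 by 6.49 and 6.56 times in WT and 2.65 and 3.22 times in KO, while the ratio of SKA1 to SKA3 overlapped between groups. Within the NDC80 complex the ratios went in different directions. NUF2 to NDC80 was 1.84 and 1.28 in WT and 1.97 and 2.17 in KO, and SPC24 to NDC80 was 0.589 and 0.853 in WT and 1.004 and 1.80 in KO. SPC25 to NDC80 went the other way, at 2.16 and 2.38 in WT and 1.34 and 1.71 in KO.

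**Figure D5:**
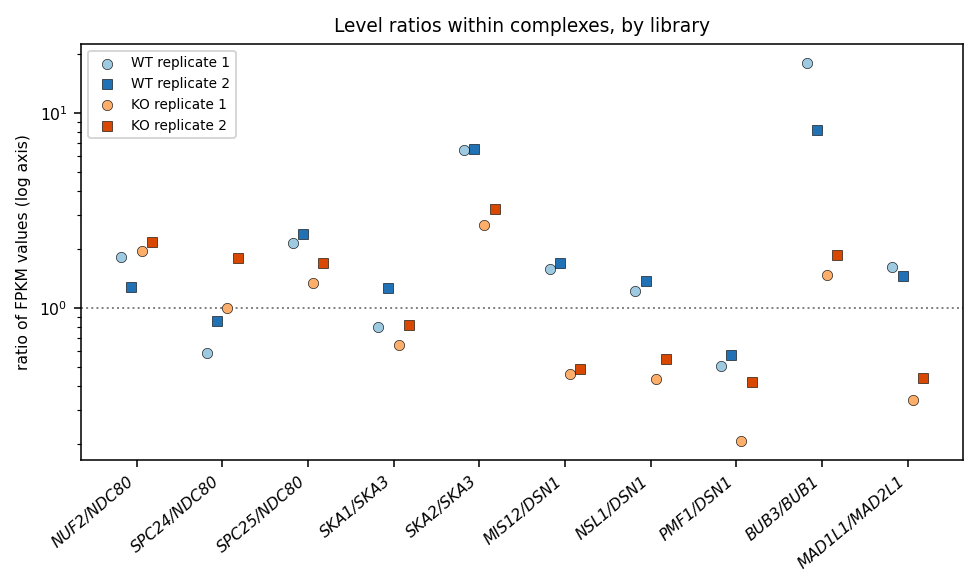
Ratio of FPKM values of pairs of subunits in each library, on a log axis, with a dotted line at equal FPKM. For MIS12/DSN1, NSL1/DSN1 and MAD1L1/MAD2L1 the WT libraries lie above the line and the KO libraries under it, and BUB3/BUB1 was 18.1 and 8.19 in WT and 1.47 and 1.86 in KO.

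Other genes that work at kinetochores but are not among the 38 were counted in the same fit, and 20 of 27 rose and 0 fell. All 6 genes of the chromosomal passenger complex and the shugoshins, which correct attachments and protect centromeric cohesion, rose, with AURKB, the kinase of that complex, at 1.69 and 3.13 FPKM in WT and 22.5 and 28.4 FPKM in KO and a log2 change of 2.98. CDCA8, BIRC5 and INCENP, its other subunits, rose by 2.72, 2.47 and 2.04 on the log2 scale. Of 7 further checkpoint genes 6 rose, led by CDC20 (log2 3.13), TTK, the kinase that starts checkpoint signalling (log2 2.08), KNTC1 (log2 1.72) and TRIP13 (log2 1.68). The exception, MAD2L1BP, chosen after its values were seen, stood at 12.01 and 9.22 FPKM in WT and 8.72 and 7.76 FPKM in KO (limma adjusted p = 0.219). Of 8 partners in microtubule attachment 6 rose, led by PLK1 (log2 3.25), KIF2C (log2 2.60), SPAG5 (log2 2.60) and KIF14 (log2 2.50). Among the remaining centromere and inner kinetochore genes, ITGB3BP, which encodes CENP-R, rose (log2 1.21). The abundant CENPB, which binds a DNA motif of centromeric repeats, stood at 63.6 and 76.6 FPKM in WT and 61.4 and 77.4 FPKM in KO, and CENPX, a histone-fold partner of CENPT and CENPW, at 31.9 and 38.2 FPKM and 26.7 and 55.4 FPKM, with overlapping groups for both.

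All 10 genes of G2 and mitosis rose, with a median log2 change of 2.97, led by MKI67 (log2 3.26), HMMR (log2 3.23), UBE2C (log2 3.04) and TOP2A (log2 3.03). Of 11 tested genes of S phase 10 rose, with a median log2 change of 1.46 and the 4 largest in MCM6, MCM5, MCM4 and RRM2 (log2 1.57 to 1.67), while PCNA, chosen after its values were seen, stood at 183 and 169 FPKM in WT and 197 and 181 FPKM in KO. Of 11 tested genes of arrest and cell cycle regulation 4 rose and 1 fell. The gene that fell was CDKN1A, which encodes p21, an inhibitor of cyclin-dependent kinases, at 472 and 469 FPKM in WT and 39.8 and 46.8 FPKM in KO (limma adjusted p = 0.00154). The genes that rose were MYBL2 and FOXM1, partners of the MuvB complex (log2 1.88 and 1.49), LIN9, a subunit of the MuvB core (log2 1.06), and E2F1 (log2 1.02). Among the other factors of the motifs searched, NFYA, a subunit of NF-Y, E2F4 and E2F7 did not pass (log2 0.11, 0.11 and 0.61); they and E2F1 were chosen after their values were seen. Binding of these factors to the promoters was not measured here. The call of FOXM1 was lost without WT replicate 1 or KO replicate 1 (adjusted p = 0.0605 and 0.0614) and that of LIN9 without WT replicate 1 (adjusted p = 0.0699). The call of E2F1 was lost without WT replicate 1 or KO replicate 2 (adjusted p = 0.14 and 0.0724), and E2F7 passed without KO replicate 2 (adjusted p = 0.0436).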

How the data were processed

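Paired-end reads of 4 libraries of HFL1 cells were aligned with HISAT2 2.0.5 and the builds hg38 and mm10 are named, per the submitters' processing notes. The authors deposited a table of FPKM values with 1 column for each library. How reads were counted, with which strand setting, and how libraries were scaled is not given in the sources used here. Identifiers and ends of all 58735 genes equalled those of GENCODE 29 on GRCh38. Whole reads were recovered by multiplying FPKM with gene length and dividing by a step found per library (100% of values whole within 0.01), giving 16173899 to 17715774 reads. The library size implied by the step was 0.986 to 1.03 times those reads, so it was not their total. Over genes above 0 in every library, the median ratio to the geometric mean was 1.0046 in each of the 4 libraries. The deposited values were thus already scaled to an equal median ratio.

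Values were tested as log2(FPKM + 1) with limma 3.58.1 in R 4.3.3, with an intensity trend, no replicate block and Benjamini-Hochberg adjustment over the 14100 genes with at least 1 FPKM in at least 2 libraries, called at an adjusted p under 0.05. For low genes this scale understates the change; every fold given is a quotient of group mean FPKM. The fit was tested on simulated data. Members, lists, motifs and tests were chosen with earlier results of these data known. The rule named all 38 members, CALU, up to 4 genes of each other list (those past the threshold by size, then the most abundant) and up to 3 markers per list. Alternatives were other pseudocounts (0.1, 0.5), no filter or a filter of 5 FPKM, quantile normalization, scaling to total reads, voom weights on recovered reads, a replicate block and leaving out each library. Promoters came from RefSeq (GRCh38.p14). Some results on genes that are not among the 38 are not reported here.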

Additional observations from a re-analysis of the deposited data

How the results depend on the processing

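All tested members but MIS12, NSL1 and MAD1L1 kept a positive log2 change under every alternative that tested them. MIS12 stayed negative, MAD1L1 changed sign without KO replicate 2 and NSL1 without WT replicate 2 or KO replicate 1, and none of these 3 passed anywhere. All 31 calls held with a pseudocount of 0.1 or 0.5, quantile normalization, scaling to total reads and voom weights, as did all 26 of those left with a filter of 5 FPKM. Testing all 32306 genes, with no low-value filter, left 7 members that rose, the 24 others having adjusted p of 0.0505 to 0.14; in that setting 10 related kinetochore genes, 3 S phase genes and 4 G2 and M phase genes rose, and over all genes 183 rose and 193 fell. With voom weights on recovered reads 32 members rose, and 2168 genes rose and 1957 fell over all genes. The filter of 5 FPKM left 1041 genes that fell. Leaving out 1 library in turn gave 20 to 29 members that rose, and 505 to 1321 higher and 537 to 1260 lower genes over all genes tested. The group left with a single library is then assumed to vary like the other. Depth limits the lowest WT values most, with 13 reads for SPC24 in WT replicate 1.

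Same-numbered libraries deviated together from their group means (correlation 0.411 across 14100 genes, which are not independent), but 2 pairs do not settle a pairing. With the replicate block 32 members rose, CENPL being the addition, and 2968 genes rose and 2577 fell over all genes; the block gave 0 members that fell.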
